A study of Hordeum vulgare with 12 samples.

Results

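The genes described here are those whose transcript level was lower in the barley mutant blf13 than in its background cultivar Bonus and higher in the mutant nal1 than in its wild type Sebastian. There were 111 of them among 22437 genes tested and 81687 gene IDs counted. A gene was taken when its mean over the 12 libraries was at least 1 CPM (CPM is the usual depth-scaled count, here with TMM factors), its highest blf13 library lay below its lowest Bonus library, its lowest nal1 library lay above its highest Sebastian library, and both ratios of means, Bonus over blf13 and nal1 over Sebastian, were at least 1.3. Direction, lack of overlap and ratio in these contrasts were therefore fixed by the choice and are given below as a description only.

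The RNA came from barley (Hordeum vulgare) plants aged 7 days, from which leaf 1 was taken off and the lowest centimetre around the shoot apex kept. The 4 genotypes were blf13, which stands in the Bonus background, Bonus itself, nal1, which stands in the Sebastian background, and Sebastian itself, with 3 biological replicates each and 6 plants pooled per replicate. The labels give no treatment, no allele beyond these names and no number of lines, so any other genetic difference between a mutant line and its cultivar is part of each contrast. The blf13 allele is described in the title as gaining function in the gene that corresponds in barley to NARROW LEAF1 of rice, with wider leaves.

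NARROW LEAF1 of rice encodes a plant-specific protease-like protein. Its loss narrows the rice leaf, with fewer longitudinal veins, and it is known there for effects on cell division and on the transport of auxin, the hormone that helps to set where veins and leaf margins form. The base of a young grass leaf is where cells divide and begin to elongate, so RNA from this piece comes from growing tissue of several cell types. In such bulk tissue, fewer cells of a type and less RNA per cell cannot be told apart.

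The files carry gene IDs that begin with HORVU.MOREX.r3 and no names, and none of the 81687 IDs occurs in the RefSeq gene table used here, which is for the MorexV3 assembly. The 111 genes are therefore described by ID, level, pattern and place, no function is given to any of them, and neither the gene of NARROW LEAF1 nor markers of the sampled tissue were looked up. Reads in genes came to 14831979 to 62995658 per library. Replicate 2 of blf13 stood apart with 29.8% unmapped reads, where the other 11 libraries had 10.3% to 17.8%. The counts of genes passing in blf13 and of genes found by the rule are given with and without it. Other values below include it.

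Most of the 111 genes had low to moderate levels. Their mean CPM over all libraries ranged from 1.13 to 775 with a median of 7.98. The 18452 tested genes that also reached the minimum mean of 1 CPM had a higher median, 14.96 CPM. Over all tested genes, which include those below this minimum, the median was 8.88 CPM. Between 1 and 3 CPM lay 27 genes, 35 were at 3 to 10, 28 at 10 to 30, 13 at 30 to 100 and 8 at 100 CPM or more. The genes were supported by 358 to 254398 reads each, summed over the 12 libraries, with a median of 2564. Together they took 0.226% to 0.260% of the reads in genes in blf13 libraries against 0.311% to 0.378% in Bonus libraries, and 0.482% to 0.485% in nal1 libraries against 0.271% to 0.311% in Sebastian libraries.

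The changes that chose the genes were mostly modest. The log2 fold change of blf13 against Bonus ran from −5.67 to −0.38 with a median of −0.54 (all tested genes −0.0081), and that of nal1 against Sebastian from 0.36 to 2.28 with a median of 0.58 (all tested genes 0.013). Standard errors of these log2 fold changes had medians of 0.17 in blf13 and 0.16 in nal1. Fitted changes of at least 1 on the log2 scale were found for 14 genes in blf13, for 24 in nal1 and for 8 in both mutants. The size was larger in nal1 for 60 genes and larger in blf13 for 51. Both ratios were under 1.5 for 42 genes.

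With edgeR's quasi-likelihood test, adjusted over all tested genes, 36 of the 111 genes were lower in blf13 at an adjusted p under 0.05, where 1.98% of all tested genes were. For nal1 above Sebastian the count was 76, beside 6.12% of all tested genes, and 29 genes passed in both mutants, beside 0.196%. Since these contrasts chose the genes, nothing is read from the counts. They rest on single libraries. In blf13, 12 genes passed without blf13 replicate 1, 9 without blf13 replicate 2, 15 without Bonus replicate 1, 10 without Bonus replicate 2 and 60 without Bonus replicate 3. In nal1, 45 passed without nal1 replicate 3, 46 without Sebastian replicate 2 and 29 without Sebastian replicate 3. The count for both mutants was lowest at 6, without blf13 replicate 2, and highest at 46, without Bonus replicate 3. Of the 111 genes, 28 passed in neither mutant. Calls over all tested genes moved with the same libraries. Lower in blf13 were 445 genes with all 12 libraries, 72 without blf13 replicate 1 and 86 without blf13 replicate 2. That count was 154 without Bonus replicate 1, 84 without Bonus replicate 2 and 1228 without Bonus replicate 3. Higher in nal1 were 1374 with all 12, 527 without nal1 replicate 3, 489 without Sebastian replicate 2 and 303 without Sebastian replicate 3.

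**Figure D1:**
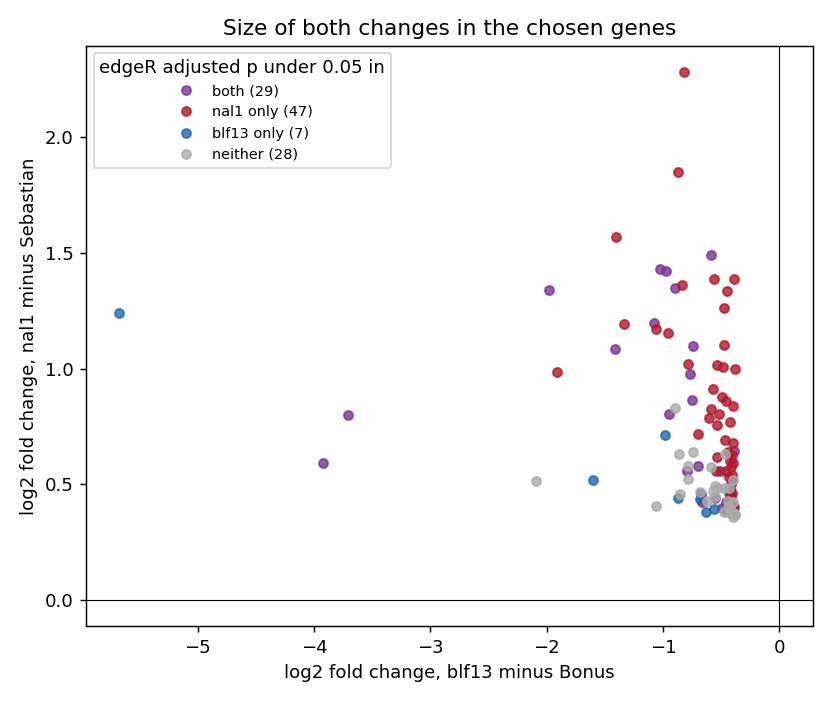
Log2 fold change of nal1 minus Sebastian (vertical axis) against that of blf13 minus Bonus (horizontal axis) for the 111 genes, 1 point per gene, coloured by the mutant in which the edgeR adjusted p is under 0.05. The choice confines all points to the upper left, and most lie near the origin, with medians of −0.54 and 0.58.

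A pair of genes had the smallest adjusted p in the less certain of both contrasts, a choice that favours a small spread. HORVU.MOREX.r3.2HG0183380, on chromosome 2H, had 5.98, 5.47 and 5.66 CPM in blf13 against 9.66, 10.2 and 8.92 CPM in Bonus, a log2 fold change of −0.75 (SE 0.13). It had 13.4, 19.5 and 15.2 CPM in nal1 against 8.18, 9.52 and 8.95 CPM in Sebastian, a log2 fold change of 0.86 (SE 0.12). The libraries of both wild types overlapped, blf13 lay below them and nal1 above them. HORVU.MOREX.r3.1HG0000490, on 1H, had 17.4, 14.9 and 18.6 CPM in blf13 against 25.3, 26.7 and 22.9 CPM in Bonus, a log2 fold change of −0.56 (SE 0.09). Its nal1 libraries had 21.1, 19.0 and 21.1 CPM against 15.1, 15.03 and 14.8 CPM in Sebastian, a log2 fold change of 0.44 (SE 0.09). Here Bonus was the highest genotype, nal1 lay below it, and blf13 and Sebastian were the low ones, with blf13 replicate 2 inside the range of Sebastian.

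The genes with the deepest fall in blf13 were close to absent there. HORVU.MOREX.r3.5HG0479840, on 5H, had 0.173, 0.181 and 0.105 CPM in blf13 against 2.48, 2.16 and 2.60 CPM in Bonus, a log2 fold change of −3.92 (SE 0.23). From its 15 reads in blf13 against 164 in Bonus, the blf13 to Bonus ratio was 0.0648, with a 95% exact counting interval of 0.0355 to 0.110. It had 3.42, 4.32 and 3.39 CPM in nal1 against 2.496, 2.29 and 2.63 CPM in Sebastian, a log2 fold change of 0.59 (SE 0.16). Bonus and Sebastian overlapped, so blf13 was the genotype that stood apart most. HORVU.MOREX.r3.6HG0545500, on 6H, had 0.469, 0.254 and 0.0699 CPM in blf13 against 7.59, 34.6 and 1.53 CPM in Bonus, a log2 fold change of −5.67 (SE 0.97). Its Bonus libraries thus differed widely among themselves, with an SD of 17.6 CPM about a mean of 14.6 CPM, and replicate 2 carried most of that mean. This gene had 3.09, 3.91 and 4.03 CPM in nal1 against 1.59, 2.18 and 1.12 CPM in Sebastian, a log2 fold change of 1.24 (SE 0.82).

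The genes with the strongest rise in nal1 changed less in blf13. HORVU.MOREX.r3.3HG0322550, on 3H, had 5.43, 4.95 and 4.52 CPM in nal1 against 1.08, 1.00 and 0.986 CPM in Sebastian, a log2 fold change of 2.28 (SE 0.21). In blf13 it had 0.766, 0.435 and 0.559 CPM against 0.910, 1.39 and 0.836 CPM in Bonus, a log2 fold change of −0.82 (SE 0.25), with a narrow gap between the groups. All libraries of the other 3 genotypes lay at 1.39 CPM or lower. HORVU.MOREX.r3.7HG0720280, on 7H, had 18.4, 21.3 and 22.6 CPM in nal1 against 4.26, 7.77 and 5.25 CPM in Sebastian, a log2 fold change of 1.85 (SE 0.26). Its blf13 libraries had 2.20, 3.30 and 1.54 CPM against 3.44, 3.30 and 6.13 CPM in Bonus, a log2 fold change of −0.87 (SE 0.30). In this gene blf13 replicate 2 and Bonus replicate 2 were separated by less than the last digit printed.

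The gene with the highest mean CPM of the 111 was HORVU.MOREX.r3.7HG0665050, on 7H. It had 499.5, 467 and 559 CPM in blf13 against 630.3, 744 and 644 CPM in Bonus, a log2 fold change of −0.40 (SE 0.11). In nal1 it had 1158, 1070.0 and 1160.4 CPM against 904, 819.8 and 646 CPM in Sebastian, a log2 fold change of 0.52 (SE 0.11). Bonus and Sebastian overlapped, with blf13 below and nal1 above both.

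At the edge of the ratio limit, HORVU.MOREX.r3.3HG0323610 was just inside, with ratios of 1.33 for Bonus over blf13 and 1.30002 for nal1 over Sebastian. It had 4.74, 5.43 and 5.35 CPM in blf13 against 7.08, 7.74 and 5.90 CPM in Bonus, and 7.71, 5.90 and 6.83 CPM in nal1 against 5.85, 5.15 and 4.72 CPM in Sebastian. The gene just outside, HORVU.MOREX.r3.7HG0691790, had ratios of 1.297 and 1.87. It had 2.96, 3.04 and 2.38 CPM in blf13 against 3.44, 3.48 and 3.95 CPM in Bonus, and 2.62, 4.48 and 3.54 CPM in nal1 against 2.02, 1.93 and 1.75 CPM in Sebastian. A further 323 genes, this one included, met every condition but the ratio.

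**Figure D2:**
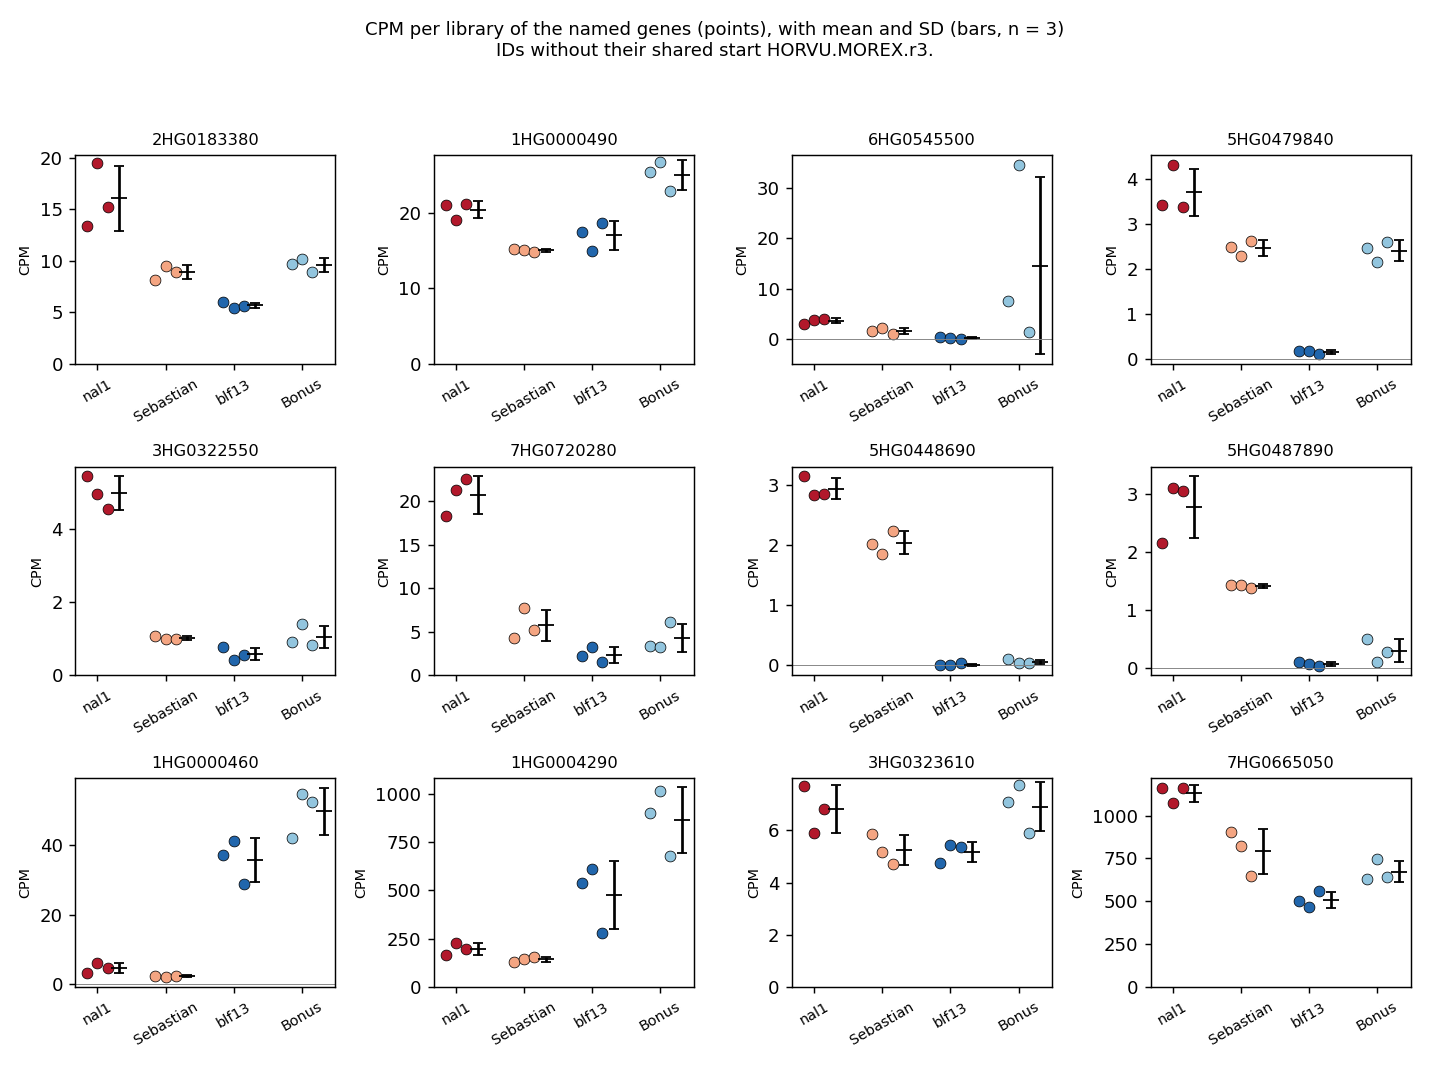
CPM of the 12 named genes that are among the 111, 1 panel per gene, each on its own linear axis from 0, with 1 point per library and the mean and SD of each genotype (n = 3) beside the points. The nal1 points lie above Sebastian and the blf13 points below Bonus in every panel by choice, while the height of the Sebastian pair relative to the Bonus pair differs between genes.

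The cultivar backgrounds were set side by side with the mean of nal1 and Sebastian minus the mean of blf13 and Bonus on the log2 scale. This difference is the sum of Sebastian minus Bonus and the mean size of both mutant changes. The rule makes the second term positive in every gene, so the difference is given as a description and nothing is read from its sign or from the counts. Its median over the 111 genes was 0.67, with quartiles of 0.38 and 1.23, beside −0.0019 over all tested genes. The mean size of both mutant changes had a median of 0.58, and the remaining Sebastian minus Bonus term a median of 0.058, with quartiles of −0.15 and 0.38. With edgeR's quasi-likelihood test at an adjusted p under 0.05, 89 of the 111 genes (80.2%) were higher in the Sebastian background, where 21.2% of all tested genes were, and 11 (9.91%) were lower, where 19.5% were.

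**Figure D3:**
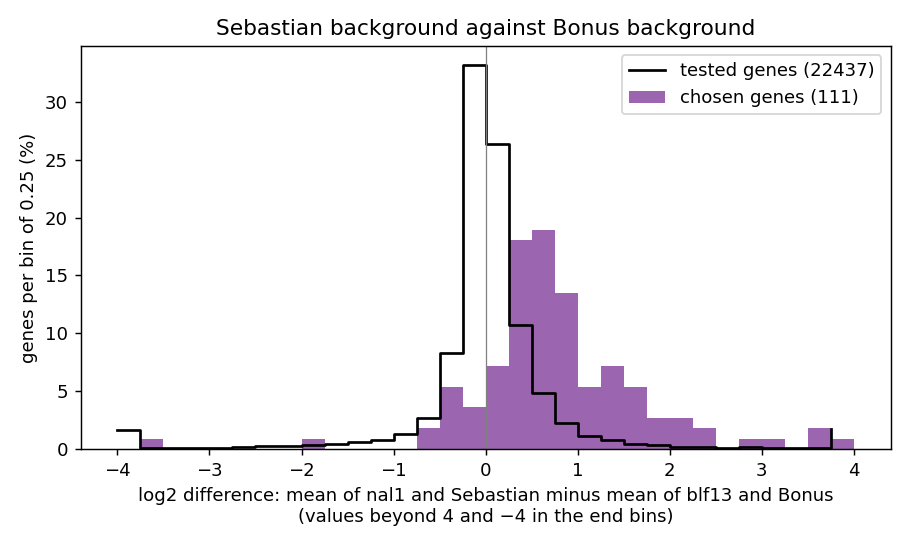
Share of genes (vertical axis, %) in bins of the log2 difference between the mean of nal1 and Sebastian and the mean of blf13 and Bonus (horizontal axis), for the 111 chosen genes (bars) and all 22437 tested genes (line). The bars centre on a median of 0.67, the line on −0.0019.

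Between the wild types, Sebastian and Bonus, the genes went both ways. The ratio of means had a median of 1.05 over the 111 genes, with quartiles of 0.901 and 1.31. Sebastian had the higher mean in 66 genes and Bonus in 45. In 71 genes the libraries of both wild types overlapped, in 21 every Sebastian library lay above every Bonus library, beside 15.9% of all tested genes, and in 19 every one lay below, beside 17.5%. The choice favours high Bonus and low Sebastian values, so this ratio is set too low by it and was not tested.

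Across the cultivars, nal1 stood above Bonus with a median ratio of 1.62 (quartiles 1.302 and 2.35), and Sebastian above blf13 with a median ratio of 1.55 (quartiles 1.303 and 2.10). Where the wild types are alike, both ratios are close to those that chose the genes, so they too are a description. Every nal1 library lay above every Bonus library in 82 genes and below in 9, beside 23.9% and 24.2% of all tested genes. Every Sebastian library lay above every blf13 library in 86 genes and below in 10, beside 22.6% and 19.5%. Between the mutants themselves, nal1 over blf13, the median ratio was 2.31.

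In 93 of the 111 genes blf13 had the lowest mean and nal1 the highest. The most frequent order of the means, from low to high, was blf13, Bonus, Sebastian, nal1, in 66 genes (59.5%), and next blf13, Sebastian, Bonus, nal1, in 27 genes (24.3%). The remaining 18 genes had orders with Sebastian lowest or Bonus highest. In 23 genes no library of any genotype overlapped with those of another, beside 1.36% of all tested genes, and 21 of these had the order blf13, Bonus, Sebastian, nal1. Of the 6 pairs of genotypes, the rule itself keeps 2 apart in all 111 genes, so the shares are not comparable. In the rest at least 1 pair of neighbours in the order shared part of its range.

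**Figure D4:**
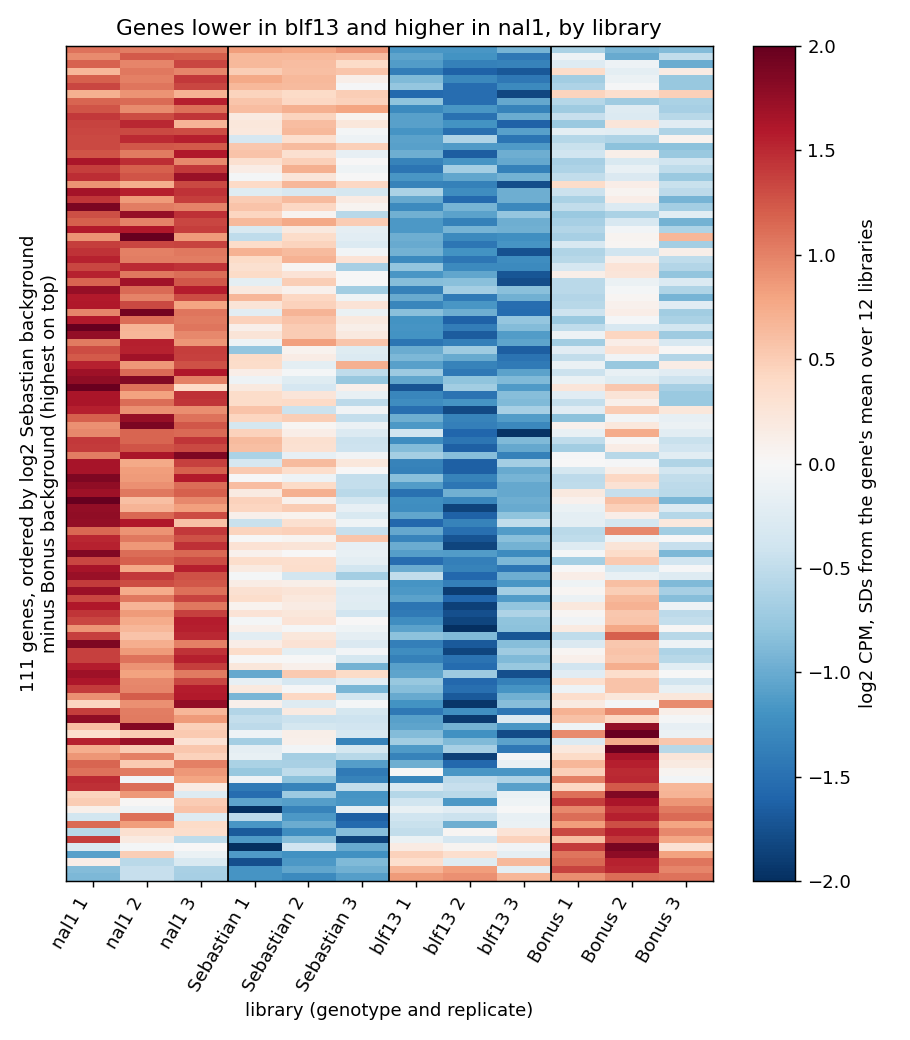
Levels of the 111 genes (rows) in the 12 libraries (columns, grouped by genotype), as log2 CPM in SDs from each gene's mean, red above and blue below it, with rows ordered by the log2 difference between the Sebastian and the Bonus background. The nal1 mean is the highest and the blf13 mean the lowest in 93 genes, and the lowest rows show the genes in which Bonus libraries are the highest.

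The genes furthest up in this order were nearly silent in the Bonus background. HORVU.MOREX.r3.5HG0448690, on 5H, had 3.15, 2.84 and 2.85 CPM in nal1 against 2.02, 1.86 and 2.25 CPM in Sebastian. It had 0, 0 and 0.0350 CPM in blf13 against 0.101, 0.0367 and 0.0465 CPM in Bonus, which is 1 read against 4 reads over the 3 libraries of each. The blf13 to Bonus ratio from these reads was 0.177 with a 95% exact counting interval of 0.00360 to 1.79, so a fall in blf13 was not detectable at this depth, although the gene met the rule. The log2 difference between the Sebastian and the Bonus background was 6.34 (SE 0.29). HORVU.MOREX.r3.5HG0487890, also on 5H, had 2.15, 3.09 and 3.05 CPM in nal1 against 1.42, 1.43 and 1.37 CPM in Sebastian. With 7 reads in blf13 and 19 in Bonus, its levels were 0.0988, 0.0724 and 0.0350 CPM in blf13 against 0.506, 0.110 and 0.279 CPM in Bonus. Its background difference was 3.75 (SE 0.28). Both genes were picked for this difference and reached the minimum mean of 1 CPM through the Sebastian background alone, so it was not tested. In both genes the backgrounds were set apart by a larger log2 difference than either mutant and its wild type.

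At the other end stood genes that were much lower in the Sebastian background. HORVU.MOREX.r3.1HG0000460, on 1H, had 3.22, 5.99 and 4.57 CPM in nal1 against 2.19, 1.90 and 2.46 CPM in Sebastian, and 37.1, 41.2 and 28.9 CPM in blf13 against 42.0, 54.8 and 52.3 CPM in Bonus. The background difference was −3.69 (SE 0.13). HORVU.MOREX.r3.1HG0004290, on 1H, had 167, 227 and 197 CPM in nal1 against 130.4, 145 and 155 CPM in Sebastian. It had 539, 611 and 278 CPM in blf13 against 899, 1012 and 675 CPM in Bonus, and a background difference of −1.93 (SE 0.17). These genes too were picked for the difference. In both of them all 6 Sebastian-background libraries lay below all 6 Bonus-background libraries. In the set of 111 this was the case for these 2 genes only (1.80%, beside 7.78% of all tested genes), whereas 21 genes (18.9%, beside 8.34%) had all 6 above. Under the rule, all 6 above needs only every Sebastian library above every Bonus library, found in 15.9% of all tested genes. All 6 below needs every nal1 library below every blf13 library, against the direction of the rule. The shares are therefore not comparable, and nothing is read from them. Cultivar and any difference in how the plants of each background were grown cannot be told apart, and how well reads of each cultivar map to the genes counted was not tested.

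The other 3 direction classes of the same rule give the setting. Higher in blf13 and lower in nal1 were 62 genes, lower in both mutants 16 and higher in both 127. In the class of 62 the rule pushes the background difference down, and it had a median of −0.70, with 8 genes (12.9%) higher and 42 (67.7%) lower in the Sebastian background by the edgeR test. In the order nal1, Sebastian, Bonus, blf13, which is the most frequent order of the 111 reversed, were 21 of the 62 (33.9%). A further 26 had the order nal1, Bonus, Sebastian, blf13, the reverse of the next most frequent. Both orders have nal1 lowest and blf13 highest. Among the 127 genes higher in both mutants, 36.2% were higher and 7.87% lower, with a median of 0.27. Of the 16 genes lower in both, 4 (25%) were higher and 7 (43.8%) lower, with a median of −0.030. The differences between these classes were not tested.

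To read the pattern in libraries that did not choose the genes, the rule was applied to 2 replicate numbers and the genes it found were read in the third. Many of those genes were not among the 111, which held 85 of 221, 62 of 103 and 82 of 238 of them with numbers 1, 2 and 3 left out. Leaving out number 1, 221 genes were chosen, and in the 4 held-out libraries 145 of them (65.6%) had blf13 below Bonus and nal1 above Sebastian, beside 27.8% of all tested genes with at least 1 CPM. Leaving out number 2, it was 87 of 103 genes (84.5%, beside 22.1%), and leaving out number 3, 156 of 238 (65.5%, beside 24.1%). With a ratio of at least 1.3 required in both held-out pairs the shares were 24.4%, 47.6% and 19.7% for numbers 1, 2 and 3, beside 2.17%, 2.46% and 2.04%. The nal1 direction alone held in 90%, 91.3% and 96.2% of the genes, beside 49.4%, 46.2% and 48.0%. The blf13 direction alone held in 71.0%, 91.3% and 68.5%, beside 55.3%, 56.5% and 51.5%. These shares are a description, since the 3 choices share libraries and genes are not independent. Each held-out nal1 library was read against the Sebastian library of the same number, although these numbers were not taken as pairs.

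**Figure D5:**
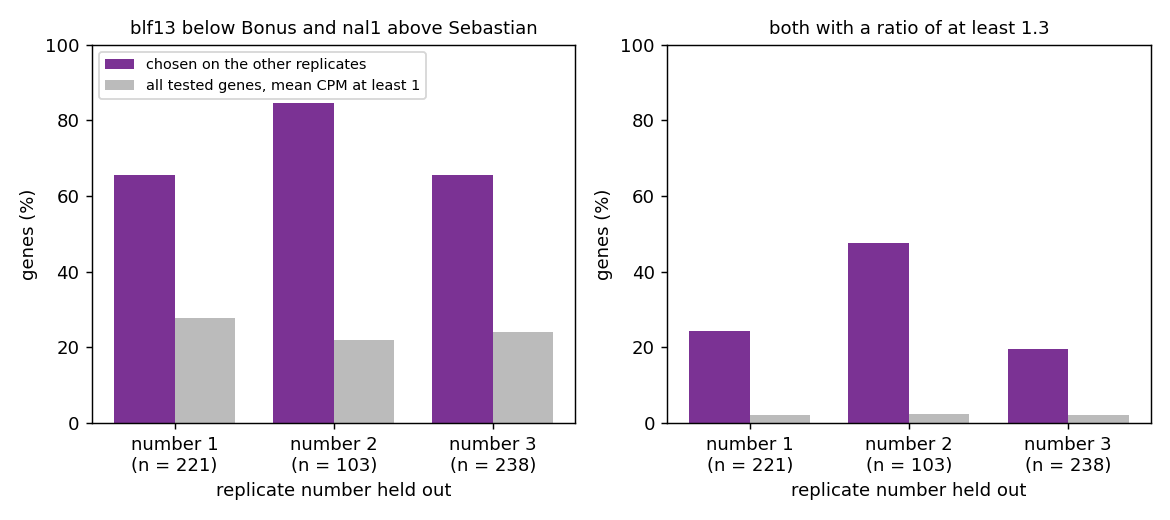
Share of genes (vertical axis, %) with both directions (left) and with both ratios of at least 1.3 (right) in the 4 libraries of the replicate number held out (horizontal axis), for genes chosen on the other 2 numbers and for all tested genes with a mean of at least 1 CPM. The chosen genes reach 65.5% to 84.5% on the left and 19.7% to 47.6% on the right, and number 2 is the highest in both.

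The blf13 side of the pattern was thus uneven between replicate numbers. In genes chosen on the other numbers, the held-out log2 ratio of Bonus over blf13 (after adding 0.1 CPM) had a median of 0.73 for number 2, 0.23 for number 1 and 0.14 for number 3, while that of nal1 over Sebastian was 0.51, 0.58 and 0.68 for numbers 1, 2 and 3. In the 111 genes the median ratio of Bonus over blf13 was 1.35, 1.72 and 1.29 for numbers 1, 2 and 3. Replicate 2 of both genotypes had the most multimapping reads, with 4.01% in blf13 and 2.18% in Bonus beside 1.40% to 1.78% in the other libraries, and blf13 replicate 2 the most unmapped reads. The part of these reads in the result was not tested. Without blf13 replicate 2 the rule found 97 genes, 85 of them among the 111, and without Bonus replicate 2 it found 85, of which 73 were among the 111. A fit with replicate number as a block within each cultivar background left 24 genes passing in blf13, 70 in nal1 and 19 in both. Over all tested genes this fit called 193 lower in blf13 and 1256 higher in nal1, beside 445 and 1374 in the main fit.

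Within a genotype the 111 genes also moved together from library to library. The mean deviation from the genotype mean of log2 CPM was 0.19 in Bonus replicate 2 and −0.15 in Bonus replicate 3, −0.12 in Sebastian replicate 3 and 0.098 in Sebastian replicate 2, and lay between −0.066 and 0.068 in the mutant libraries. Over all tested genes these means stayed between −0.049 and 0.034. Across the 12 libraries the deviations of pairs among the 111 genes correlated with a mean r of 0.22, beside 0.0089 for pairs of tested genes with at least 1 CPM, a description over libraries that also entered the rule. Between Bonus replicates 2 and 3 this difference came to 0.34, beside a median log2 fold change of −0.54 in blf13.

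The 111 genes came from all 7 chromosomes, with 10 on 6H to 21 on 2H and 20 on 7H, and made up 0.364% to 0.609% of the tested genes of a chromosome. Of the 111, 40 genes (36.0%) were among the first or last 10% of a chromosome's tested genes in ID order, where 19.6% of tested genes with at least 1 CPM were. The share was 24.0% of all genes called lower in blf13 and 24.0% of all genes called higher in nal1. It was 37.1% in the class of 62 with the reverse pattern, 19.7% in the class of 127 higher in both and 31.2% (5 genes) in the class of 16 lower in both. No test was made of these shares.

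Among the 111, 3 pairs were direct neighbours among tested genes, named here after their values were seen. HORVU.MOREX.r3.2HG0105400 averaged 8.51 ± 2.26 CPM in blf13 and 16.5 ± 5.57 CPM in Bonus, and 55.7 ± 11.9 CPM in nal1 and 25.3 ± 6.86 CPM in Sebastian (SD, n = 3 each). Its neighbour HORVU.MOREX.r3.2HG0105420 averaged 2.82 ± 1.17 CPM in blf13 and 5.97 ± 2.57 CPM in Bonus, and 32.5 ± 4.79 CPM in nal1 and 14.6 ± 4.96 CPM in Sebastian (SD, n = 3 each). The log2 fold changes of both genes were alike, −0.96 and −1.07 in blf13 and 1.15 and 1.17 in nal1. HORVU.MOREX.r3.2HG0110770 and HORVU.MOREX.r3.2HG0110780 had log2 fold changes of −0.95 and −0.79 in blf13 and 0.80 and 0.52 in nal1. HORVU.MOREX.r3.3HG0323260 and HORVU.MOREX.r3.3HG0323270 had −0.47 and −1.41 in blf13 and 0.69 and 1.08 in nal1, at mean levels of 84.9 ± 4.25 and 2.23 ± 0.520 CPM in blf13 against 117 ± 16.0 and 5.90 ± 2.45 CPM in Bonus (SD, n = 3 each). Reads that map to several genes are not counted, so near-identical neighbours would be undercounted, and whether these pairs are copies was not looked up.

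For 109 of the 111 genes the counts taken per strand summed to at most 1.1 times the count taken without strand. The other 2, HORVU.MOREX.r3.5HG0510380 with 2.24 times and HORVU.MOREX.r3.6HG0552570 with 1.24 times, singled out after their values were seen, have reads that the unstranded count set aside as ambiguous, and their levels are uncertain. Of all tested genes 1.58% exceeded this limit.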

How the data were processed

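RNA-seq libraries of 12 barley samples (4 genotypes, 3 biological replicates each) were analysed from the count files the authors deposited, which hold 81687 gene IDs per library after 4 summary lines. Per the submitters' processing notes reads were aligned with STAR 2.7.3a. For genome build, annotation and read filtering, the entry is: not given in the sources used here. Since the library kit named in the labels does not mark strand, and since 50.5% to 50.7% of strand-counted reads fell on one strand, the unstranded counts were used. The summary lines (15.7% to 37.9% of reads) were left out, which leaves 14831979 to 62995658 counts per library in genes. Replicates of a genotype differed by more than counting noise (chi-square per degree of freedom 3.88 to 11.2), so none was counted as a copy.

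Counts were filtered with filterByExpr by genotype, scaled with TMM and tested with the edgeR 4.0.16 quasi-likelihood test (R 4.3.3), with 1 coefficient per genotype and Benjamini-Hochberg adjustment over all 22437 tested genes. DESeq2 1.42.0 and limma 3.58.1 (cyclic loess) served as alternatives. The procedure was run on simulated data with known changes, where only its median log2 fold changes were held to a limit. How many unchanged genes the rule finds is not given here. Levels are CPM from TMM-scaled library sizes, not corrected for gene length, so they are compared between samples and not between genes. Log2 CPM used a prior count of 2. Counting intervals are exact at a level of 0.95 and cover counting error only.

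The members and the lists were chosen with earlier results of these data known. Genes named were the 2 with the smallest larger adjusted p, the 2 lowest log2 fold changes in blf13, the 2 highest in nal1, the 2 highest and 2 lowest background differences at an adjusted p under 0.05, the genes nearest to the ratio limit on either side and the gene of highest mean CPM. Within-genotype deviations of same-numbered libraries correlated across genes at 0.219, 0.315 and 0.213 between blf13 and Bonus, so their replicate numbers were taken as pairs from the data, the labels being silent. Between nal1 and Sebastian they correlated at −0.0997, −0.0408 and 0.11, and these numbers were not taken as pairs. The main test used no pairs in either background. Among the fits, only those with a replicate block used the numbers. The contrast between cultivar backgrounds had been planned as a test that the choice of genes leaves free. Since it contains the size of both mutant changes, it is given as a description.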

Additional observations from a re-analysis of the deposited data

Results flagged for a closer look

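All 111 genes moved in opposite directions in the mutants, with every blf13 library below every Bonus library and every nal1 library above every Sebastian library. That opposition is fixed by how the genes were chosen, and the difference between the mutants was not tested. Over all tested genes, every blf13 library lay below every Bonus library in 13.1%, and every nal1 library above every Sebastian library in 16.2%.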

How the results depend on the processing

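The fitted direction of all 111 genes in both mutants was kept in every alternative except the fit of the 6 Bonus-background libraries alone, where 109 were lower in blf13. The choice had set these directions in the same data, so keeping them was nearly assured and nothing is read from it. Counts of genes passing in blf13 were 58 with DESeq2, 73 without a low-count filter, 8 with those 6 libraries alone and 9 to 60 with single libraries left out. In nal1 they were 29 to 80 with single libraries left out. In both mutants they were 18 with loess offsets, 48 with DESeq2, 68 without a filter, 19 with a replicate block within each background and 6 to 46 with single libraries left out. The replicate block over all 12 libraries gave 30 in blf13, 73 in nal1 and 25 in both. For both mutants the share over all tested genes is given for the main fit only. Calls over all tested genes moved as well. Lower in blf13 were 445 in the main fit, 912 with DESeq2, 946 without a filter and 52 with those 6 libraries alone. Higher in nal1 were 1374 in the main fit, 1529 with DESeq2 and 2027 without a filter. Loess offsets gave 225 lower in blf13 and 1127 higher in nal1, and the replicate block over all 12 libraries 286 and 1367. With single libraries left out, 87 to 90 of the 111 genes were higher and 8 to 10 lower in the Sebastian background. The rule found 225 genes at a minimum ratio of 1.2, 28 at 1.5, 8 at 2, 66 at a minimum mean of 5 CPM and 85 to 220 with single libraries left out. Held-out shares were 24.4%, 47.6% and 19.7% at a ratio of at least 1.3, beside 2.17%, 2.46% and 2.04% of all tested genes with at least 1 CPM. Background differences that did not pass the edgeR test changed sign for HORVU.MOREX.r3.3HG0323610 (0.0034, 0.034, 0.0395 and 0.026 when replicate 2 of blf13, of Bonus or of nal1, or replicate 3 of Sebastian, was dropped, in a range from −0.064 to 0.0395) and for HORVU.MOREX.r3.6HG0545500 (−0.041 without Bonus replicate 3, in a range up to 1.09). The cause of these moves was not tested. Genes with few reads, such as HORVU.MOREX.r3.5HG0448690, are limited by depth.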
